A study of Mus musculus with 106 samples.

Results

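The 10 genes described here are classical immediate early genes. Rows with the symbols Fos, Fosb, Jun, Junb, Egr1, Egr2, Arc, Npas4, Nr4a1 and Ier2 were taken from 4 tables of raw gene counts from bulk RNA sequencing. These are 10 of 21647 genes listed in the table of 8 tissues, 10 of 23393 in the table its authors named for 7 tissues, which holds the quadriceps and the warm libraries, and 10 of 23420 in each of the bone marrow and spinal cord tables. All 10 were found in all 4 tables, in the 8 tissue table through Ensembl identifiers matched to symbols.

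The 106 libraries came from male wild type C57BL/6J mice that were 8 weeks old when the experiments began. One set of mice, from Janvier, was held at 10 °C for 2 weeks after steps of 5 days each at 18 °C and then 14 °C, or stayed at 22 °C, and was 11 weeks old at sampling (12 weeks by the label for quadriceps). The other set, from Charles River, was held at 34 °C or 22 °C for 4 weeks and was 12 weeks old. Each 10 °C or 34 °C group was compared with the 22 °C libraries of its own tissue and, except in quadriceps, of its own experiment. This was done in 11 tissues at 10 °C and 5 tissues at 34 °C. The tissues were interscapular brown adipose tissue (iBAT), inguinal subcutaneous adipose tissue (ingSAT), perigonadal visceral adipose tissue (pgVAT), quadriceps, ileum, liver, spleen, bone marrow, spinal cord, brain and hypothalamus. A library pools 2 mice, except in spinal cord and bone marrow, where it is 1 mouse. Groups hold 3 libraries, except 5 in spinal cord, 6 in bone marrow and 6 in quadriceps at 22 °C. The labels do not say which of those 6 quadriceps controls belong to which experiment, so both quadriceps comparisons use all 6 and share them. Some of their column names start with QM, as in the cold libraries, and the others with QC, as in the warm ones. The 6 may thus mix mice of both suppliers and libraries made with different kits.

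The genes lie on GRCm38 (GENCODE M21) at chr12:85473890-85477273 (Fos, plus strand), chr7:19302696-19310051 (Fosb, minus), chr4:95049034-95052222 (Jun, minus), chr8:84974484-84978718 (Junb, minus) and chr18:34859823-34864984 (Egr1, plus). The others lie at chr10:67535475-67542188 (Egr2, plus), chr15:74669083-74672570 (Arc, minus), chr19:4984355-4990316 (Npas4, minus), chr15:101254269-101274795 (Nr4a1, plus) and chr8:84661331-84662852 (Ier2, minus). Jun overlaps the antisense gene Junos and Junb overlaps Prdx2 on the other strand. Whether counting used strand is not given in the sources used here, so a share of the Jun and Junb counts could belong to these neighbours.

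Immediate early genes are transcribed within minutes of a stimulus from factors already present in the cell, without new protein synthesis, and their transcripts are short-lived. In neurons they are widely read as markers of recent firing, and in other tissues they respond to hormones, sympathetic signals, growth factors, stretch and handling. Fos, Fosb, Jun and Junb encode subunits of the transcription factor AP-1, Egr1 and Egr2 encode zinc finger transcription factors, and Nr4a1 encodes an orphan nuclear receptor. Arc encodes a protein of the neuronal synapse, Npas4 a transcription factor induced by neuronal activity, and Ier2 a small nuclear protein.

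Upstream sequence is shown for 4 members that were higher in brain at 10 °C, Fos, Junb, Egr2 and Nr4a1, and for Jun, which was not. Each run holds the 250 bases before a RefSeq transcript start on GRCm38.p6, read 5′ to 3′ on the strand of the gene. Capitals mark matches, on either strand, to the cAMP response element core TGACG, the early growth response site GCGNGGGCG, the CArG box bound by serum response factor and the TATA box TATAAA.
Fos, chr12:85473640-85473889, plus strand: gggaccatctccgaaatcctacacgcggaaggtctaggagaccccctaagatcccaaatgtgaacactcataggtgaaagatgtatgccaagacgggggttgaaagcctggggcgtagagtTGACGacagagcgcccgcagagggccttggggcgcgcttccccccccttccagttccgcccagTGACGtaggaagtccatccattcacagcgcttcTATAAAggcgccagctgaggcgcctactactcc
Junb, chr8:84978749-84978998, minus strand: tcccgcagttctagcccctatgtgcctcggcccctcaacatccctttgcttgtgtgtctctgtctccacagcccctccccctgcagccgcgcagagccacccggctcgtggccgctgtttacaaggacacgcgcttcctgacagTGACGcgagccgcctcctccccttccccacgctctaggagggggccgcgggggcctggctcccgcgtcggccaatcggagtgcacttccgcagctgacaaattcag
Egr2, chr10:67537619-67537868, plus strand: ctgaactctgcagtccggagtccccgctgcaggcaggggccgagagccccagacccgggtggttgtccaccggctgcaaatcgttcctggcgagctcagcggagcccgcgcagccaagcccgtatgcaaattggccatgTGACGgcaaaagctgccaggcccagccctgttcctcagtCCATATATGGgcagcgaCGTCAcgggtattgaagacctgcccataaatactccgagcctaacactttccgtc
Nr4a1, chr15:101266596-101266845, plus strand: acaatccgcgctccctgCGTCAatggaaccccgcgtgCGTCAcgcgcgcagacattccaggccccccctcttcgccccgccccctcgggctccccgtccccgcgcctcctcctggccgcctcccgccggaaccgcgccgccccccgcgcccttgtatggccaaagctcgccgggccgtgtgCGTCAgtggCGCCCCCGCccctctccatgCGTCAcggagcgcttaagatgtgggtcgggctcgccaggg
Jun, chr4:95052223-95052472, minus strand: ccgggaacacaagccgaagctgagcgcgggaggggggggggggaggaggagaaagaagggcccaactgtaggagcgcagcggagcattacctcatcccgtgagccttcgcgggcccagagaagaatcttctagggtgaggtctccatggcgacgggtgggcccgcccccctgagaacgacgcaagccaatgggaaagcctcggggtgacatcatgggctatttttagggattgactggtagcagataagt

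Promoter rows were at hand for 7 of the 10 genes. A gene can have more than 1 row, and these 7 have 11. TGACG was present upstream of 6 of these 7 (Fos, Fosb, Junb, Egr2, Npas4 and Nr4a1). By rows it was in 8 of the 11 and in 17.8% of the 32851 promoter rows of all genes. In Nr4a1 it occurred 4 times, in Fos and Egr2 2 times each, in Junb 1 time and in Jun 0 times. The CArG box was matched upstream of Egr2 (4 of the 11 rows) and in 1.47% of all rows. The Egr2 rows that begin at 67537619, 67537620 and 67537680 overlap and repeat the same CArG and TGACG sites. Shares of the 11 rows therefore count some sites more than 1 time and are no measure of enrichment. GCGNGGGCG was matched upstream of Fosb and Nr4a1 (2 of the 11) and in 4.70%, and TATAAA upstream of Fos (1 of the 11) and in 12.4%. Neither the full element TGACGTCA (1.55% of all rows), which contains TGACG, nor the AP-1 site TGANTCA (6.75%) was matched in any of the 7. These are matches of letters in a short window and not measured binding sites. Whether they go with the changes at 10 °C was not tested.

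Library totals ran from 4262403 to 25964912 counts in the 8 tissue table, 29545458 to 62880248 in the 7 tissue table, 15591374 to 22139577 in bone marrow and 21953207 to 29029283 in spinal cord. Marker genes of the labelled tissues were high throughout, as in liver, where the summed level of 5 hepatocyte genes was at least 65719 CPM (counts scaled to a fixed library total with TMM factors). The 22 °C brain library of replicate 2 stood apart. Its hepatocyte genes summed to 67807 CPM against 734 to 1102 CPM in the other brain libraries of that experiment, and its neuron genes to 2683 CPM against 4066 to 4645 CPM. Brain results at 10 °C are therefore given with and without that library. In pgVAT the epididymis genes summed to 14145 and 17100 CPM in 2 of the 3 libraries at 10 °C and to 2.11 CPM in the other.

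At 22 °C in the 8 tissue table the 10 genes had different tissues of highest level. CPM was scaled within each tissue's own comparison, so no common TMM factors link the tissues in this order. The Fos level averaged 110 ± 29.2 CPM (SD, n = 3) in ileum, 101 ± 21.9 in iBAT and 72.8 ± 8.55 in ingSAT, and neighbours in this order overlapped. Fos in pgVAT (45.8 CPM) lay apart from ingSAT above and from hypothalamus (21.4 CPM) below, then brain (18.6 CPM) and spleen (15.1 CPM) overlapped, and liver (4.76 CPM) was lowest and apart. Fosb was highest in iBAT, at 56.1 ± 13.6 CPM, apart from ingSAT at 24.4 CPM. Jun (106 CPM) and Egr1 (51.4 CPM) were also highest in iBAT, where both overlapped the next tissue, and Nr4a1 reached 167 ± 73.8 CPM there, apart from spleen at 35.2 CPM.
Spleen was highest for Junb (127 CPM), Egr2 (9.63 CPM) and Ier2 (35.4 CPM), in each case overlapping the next tissue. Arc was highest in brain (119 ± 44.9 CPM), apart from hypothalamus at 25.02 CPM, which in turn lay apart from every other tissue (means of 3.71 CPM or less). Npas4 averaged 9.14 CPM in brain and 7.84 CPM in hypothalamus, which overlapped, and 0.760 CPM or less elsewhere, with 0 counts in all liver libraries. These brain levels include the library of replicate 2 with hepatocyte transcripts. It held the lowest brain values of Arc (69.2 CPM) and Npas4 (8.09 CPM). Only this Npas4 value lay within the hypothalamus range of 7.47 to 8.14 CPM. Per kilobase of exon, the highest member was Arc in brain (39.0 CPM per kb, before Junb at 21.5), Jun in hypothalamus (12.2 CPM per kb, before Junb at 9.64) and Nr4a1 in iBAT (47.7 CPM per kb, before Fos at 43.0).

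Changes were tested with edgeR's quasi-likelihood test, two-sided, within each tissue. Calls needed p no higher than 0.05 before adjustment together with more than a 1.5-fold change, and Benjamini-Hochberg adjusted p-values over all genes tested stand beside the calls. Where groups are said not to overlap, the share of all genes without overlap was not computed. With few libraries a group such separation can arise by chance, so it is a description only. At 10 °C, 98 of 110 pairs of member and tissue passed the filter on low counts, of which 11 were called higher and 14 lower, with 6 at an adjusted p under 0.05. At 34 °C, 43 of 50 pairs passed, with 4 called higher, 5 lower and 1 at an adjusted p under 0.05. Shares of all genes called differed widely between tissues and stand with each tissue below. At 10 °C they ran from 0.181% (spinal cord) to 7.2% (ingSAT) higher and from 0.0904% (spinal cord) to 9.14% (ingSAT) lower. At 34 °C they ran from 0.0429% (brain) to 12.2% (iBAT) higher and from 0.15% (brain) to 7.19% (iBAT) lower. No share was pooled over tissues, so these totals are counts only. Npas4 passed in 6 of 16 comparisons and was absent from most tests outside the nervous system.
Calls within a tissue shared a direction, except in pgVAT at 10 °C and in liver at 34 °C. Of the calls at 10 °C, 9 of the 11 higher ones were in brain and spinal cord. The other higher calls were Egr2 in pgVAT and Junb in liver. All 14 lower ones were in iBAT, ingSAT, pgVAT and quadriceps, as the map of fold changes shows. No member was called in every tissue. In bulk tissue, a change in the number of expressing cells and a change in transcript per cell cannot be told apart.

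**Figure D1:**
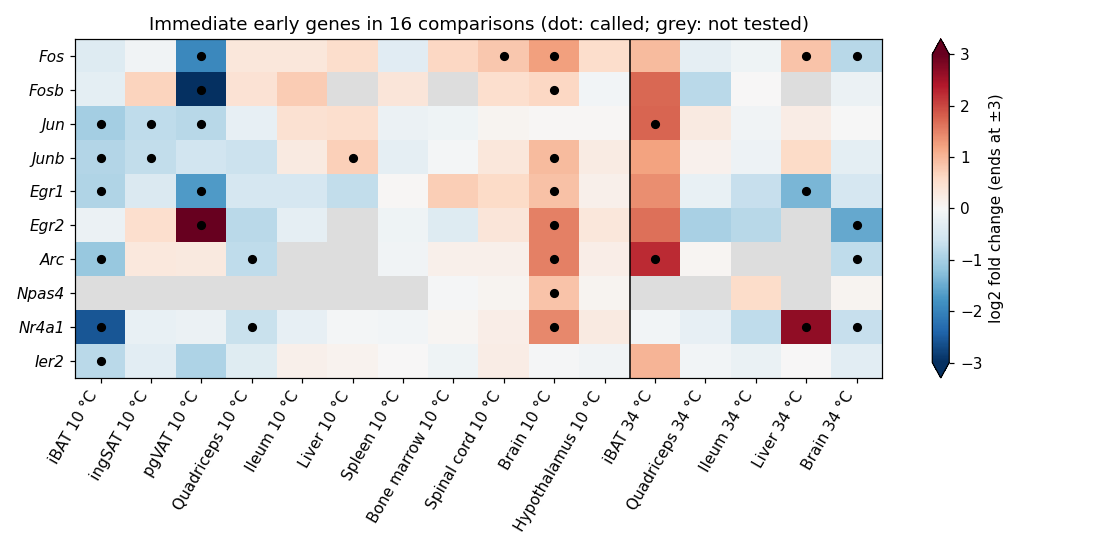
Log2 fold change of each member (rows) in each comparison (columns, 10 °C left of the line and 34 °C right of it), as colour on a scale that ends at ±3. Dots mark calls (p no higher than 0.05 before adjustment, more than 1.5-fold) and grey marks genes not tested. The brain column at 10 °C holds 8 dots, all higher, and the iBAT column at 10 °C holds 6, all lower.

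In brain at 10 °C, 8 of 10 members were higher, where 0.27% of the 14423 genes tested were called higher and 2.45% lower. Among the AP-1 subunits, Fos was at 22.04, 20.7 and 13.1 CPM in the 22 °C libraries of replicates 1, 2 and 3 and at 47.1, 48.2 and 35.5 CPM at 10 °C. Every 10 °C library was above every 22 °C library, with a log2 fold change of 1.23 (SE 0.24). Junb was at 50.7, 43.8 and 53.9 CPM at 22 °C and at 96.5, 105 and 83.1 CPM at 10 °C. It rose by 0.94 (SE 0.13) on the log2 scale and had the lowest p of all genes tested. Fosb rose by 0.62 (SE 0.25) with overlapping groups, and its call held in only 1 of the 6 omissions of a single library. Jun, at 38.2 to 50.2 CPM against 38.9 to 47.9 CPM, had a log2 fold change of 0.04 (SE 0.15).

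Both zinc finger genes rose in brain. Egr1 was at 54.4, 37.3 and 36.7 CPM at 22 °C and at 81.5, 81.8 and 72.1 CPM at 10 °C (log2 fold change 0.88, SE 0.18). Egr2 was at 4.67, 3.99 and 2.78 CPM at 22 °C and at 11.5, 12.98 and 7.97 CPM at 10 °C (log2 fold change 1.51, SE 0.28). Neither gene's groups overlapped.
Arc, whose transcript is carried into dendrites, was at 156, 69.2 and 132 CPM at 22 °C and at 312, 373 and 331 CPM at 10 °C. This is a log2 fold change of 1.51 (SE 0.31), and the lowest value belonged to the library with hepatocyte transcripts. Npas4 was at 9.82, 8.09 and 9.50 CPM at 22 °C and at 21.1, 17.3 and 11.6 CPM at 10 °C, a log2 fold change of 0.87 (SE 0.24) without overlap. Nr4a1 was at 25.8, 16.7 and 16.4 CPM at 22 °C and at 52.8, 61.0 and 45.7 CPM at 10 °C, a log2 fold change of 1.44 (SE 0.23) without overlap. Ier2 was at 6.96 to 13.9 CPM against 9.06 to 9.80 CPM, with a log2 fold change of -0.04 (SE 0.27).

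With all 3 controls, none of the brain calls passed the adjusted threshold. The adjusted p was 0.706 for each of the 8 called members, and 0% of genes passed at an adjusted p under 0.05 with a fold change above 1.5, although Junb, Nr4a1, Egr2, Fos, Arc and Egr1 were among the 9 genes with the lowest p. Without the 22 °C library of replicate 2, chosen after seeing the data, 7 members were called higher, against 0.515% of the 13976 genes higher and 0.286% lower. The 5 genes with the lowest p were then Arc, Nr4a1, Junb, Fos and Egr2, in that order. Arc had a log2 fold change of 1.23 (SE 0.09) and an adjusted p of 2.338e-07. Nr4a1 followed at 1.35 (SE 0.14, adjusted p 6.41e-05), Junb at 0.86 (SE 0.09, adjusted p 6.528e-05), Fos at 1.34 (SE 0.16, adjusted p 0.000188) and Egr2 at 1.59 (SE 0.21, adjusted p 0.000931). Egr1, at 0.80, had an adjusted p of 0.00231. These 6 are among 12 genes, or 0.0859% of those tested, that were higher at an adjusted p under 0.05 and a fold change above 1.5 in that fit. Npas4 was called there with an adjusted p of 0.101, and Fosb, at 0.55, had a fold change below 1.5. That fit rests on 2 control libraries.

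Of 46 other early response genes, 45 were tested in brain at 10 °C and 4 were called higher and 0 lower (Ptgs2, Per1, Nr4a3 and Fosl2, of which Fosl2 had the lowest p, with a log2 fold change of 0.61). Their median log2 fold change was 0.18, against -0.02 over all genes. Without the 22 °C library of replicate 2, 8 of 45 were higher and 0 lower (Btg2, Atf3, Trib1, Dusp1, Ccn1, Gem, Nr4a3 and Egr4), and Ptgs2, Per1 and Fosl2 were not among them. None of 20 regulators known to drive these genes, such as Srf and Creb1, was called in either direction with or without that library.

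**Figure D2:**
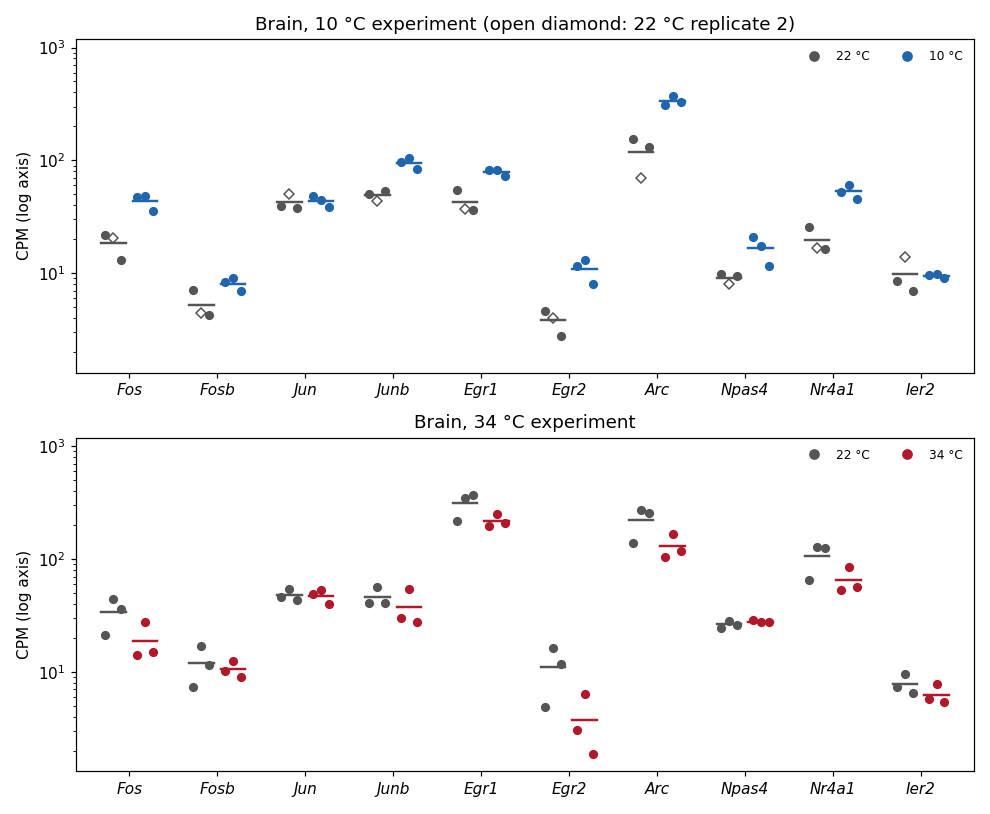
CPM of each member in each brain library on a log axis, in the 10 °C experiment (top) and the 34 °C experiment (bottom), with horizontal bars for group means. The open diamond is the 22 °C library of replicate 2. Fos sits at 35.5 to 48.2 CPM at 10 °C against 13.1 to 22.04 CPM at 22 °C, and at 34 °C the groups of Fos, Egr2, Arc and Nr4a1 overlap with lower means.

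In brain at 34 °C, against its own controls, 4 members were lower and none higher, where 0.15% of the 13978 genes were called lower and 0.0429% higher. Fos was at 21.4, 43.9 and 36.3 CPM at 22 °C and at 14.03, 28.01 and 14.9 CPM at 34 °C, a log2 fold change of -0.83 (SE 0.28). Egr2 was at 4.87, 16.3 and 11.9 CPM at 22 °C and at 3.09, 6.38 and 1.88 CPM at 34 °C, a log2 fold change of -1.52 (SE 0.45). Arc was at 140, 272 and 254 CPM at 22 °C and at 105, 166 and 119 CPM at 34 °C, a log2 fold change of -0.77 (SE 0.22). Nr4a1 was at 65.7, 127 and 125 CPM at 22 °C and at 53.8, 85.5 and 56.9 CPM at 34 °C, a log2 fold change of -0.70 (SE 0.23). In all 4 genes the groups overlapped, because 22 °C library 1 was low and 34 °C library 2 was high.
Egr1, at 219, 350 and 367 CPM against 197, 253 and 207 CPM, had a log2 fold change of -0.51 (SE 0.16), under the fold limit. Npas4 differed by 0.09 (SE 0.07) and Jun by -0.00 (SE 0.11) on the log2 scale. No member had an adjusted p under 0.05 there. Egr2 and Arc stayed called without each library in turn, while Fos was not called without 22 °C library 2 (log2 fold change -0.60) or 34 °C library 3, and Nr4a1 was not called without 22 °C library 2, 22 °C library 3 or 34 °C library 1. Of 42 other early response genes tested, none was called. The neuron genes summed to 5753 to 6139 CPM at 22 °C and 5993 to 6326 CPM at 34 °C.

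In spinal cord at 10 °C, Fos was the 1 member called, where 0.181% of 14382 genes were called higher and 0.0904% lower. Fos was at 10.9, 14.3, 10.5, 14.1 and 11.1 CPM in the 5 mice at 22 °C and at 18.9, 23.3, 21.1, 22.6 and 21.3 CPM in the 5 mice at 10 °C. The groups did not overlap, with a log2 fold change of 0.81 (SE 0.10). Fos was the only gene of those tested there that was higher at an adjusted p under 0.05 with a fold change above 1.5 (adjusted p 0.0425), which is 0.00695% of the genes. It stayed called without each of the 10 libraries in turn, at 0.77 to 0.88 on the log2 scale.
Egr1 was at 24.8 to 31.6 CPM (median 29.2) at 22 °C and at 33.1 to 45.4 CPM (median 44.7) at 10 °C, also without overlap. Its log2 fold change of 0.57 (SE 0.10, adjusted p 0.202) was just under the fold limit. Fosb, at 1.81 to 2.40 CPM against 2.29 to 3.69 CPM, had a log2 fold change of 0.51 (SE 0.15) and overlapped. Junb had 0.35 (SE 0.17), with 1 mouse at 17.7 CPM and the other 9 at 7.47 to 10.7 CPM. Arc (0.15, SE 0.10), Npas4 (0.09, SE 0.13) and Nr4a1 (0.20, SE 0.10) overlapped between groups, as did Jun, Egr2 and Ier2. All 10 log2 fold changes were above 0, with a median of 0.28 against 0.00 over all genes.

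Of 43 other early response genes in spinal cord, Dusp4, which encodes a MAP kinase phosphatase, was the 1 called higher (log2 fold change 0.59), and none was lower. Other cell types moved too. The 5 red cell precursor genes, of which all 4 tested were called higher, summed to 87.4 to 163 CPM at 22 °C and 139 to 352 CPM at 10 °C, and the oligodendrocyte genes to 27648 to 34120 CPM and 22336 to 28478 CPM. Their part in the Fos result was not tested. The neuron genes summed to 3184 to 3409 CPM at 22 °C and 2685 to 3643 CPM at 10 °C.

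In hypothalamus, the control centre of body temperature, no member was called at 10 °C, where 0.399% of 14526 genes were called higher and 0.179% lower. Fos was at 22.2, 25.9 and 16.3 CPM at 22 °C and at 36.1, 29.9 and 25.1 CPM at 10 °C, a log2 fold change of 0.52 (SE 0.16), under the fold limit and with overlap. Junb (21.4 to 22.7 CPM against 22.9 to 30.3 CPM) and Arc (23.9 to 26.01 CPM against 27.5 to 30.4 CPM) did not overlap, with log2 fold changes of 0.24 (SE 0.10) and 0.19 (SE 0.07). Npas4 was at 7.47 to 8.14 CPM against 7.31 to 9.33 CPM (log2 fold change 0.09, SE 0.12). None of 44 other early response genes was called.

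Brown fat burns fuel for heat when sympathetic nerves release noradrenaline onto it. At 10 °C, of 9 members tested in iBAT, 6 were lower and none higher, where 7.24% of 12791 genes were called lower and 6% higher. Nr4a1, which sympathetic stimulation is known to induce in brown fat, was at 96.0, 162 and 243 CPM at 22 °C and at 15.8, 31.9 and 37.2 CPM at 10 °C. The groups lay far apart, with a log2 fold change of -2.57 (SE 0.38, adjusted p 0.00453).
Jun was at 70.3, 125 and 124 CPM at 22 °C and at 58.2, 45.5 and 53.6 CPM at 10 °C, a log2 fold change of -1.02 (SE 0.21, adjusted p 0.0175). Junb was at 46.9, 84.9 and 78.2 CPM against 35.1, 37.5 and 41.8 CPM (log2 fold change -0.88, SE 0.20, adjusted p 0.0261). Egr1 was at 38.6, 65.0 and 50.5 CPM against 31.9, 21.2 and 29.5 CPM (log2 fold change -0.90, SE 0.21, adjusted p 0.0268). None of these groups overlapped, and for Jun, Junb and Egr1 the 22 °C library of replicate 1 was the lowest control.

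Arc, low in brown fat, was at 3.59, 4.53 and 2.96 CPM at 22 °C and at 1.19, 1.56 and 2.29 CPM at 10 °C (log2 fold change -1.14, SE 0.30, adjusted p 0.0411). Ier2 was at 19.5, 36.9 and 34.5 CPM against 17.2, 15.02 and 19.97 CPM (log2 fold change -0.81, SE 0.23, adjusted p 0.0528), with overlap. Thus 5 of 9 tested members were lower at an adjusted p under 0.05, where 4.14% of the genes were. All 6 calls held without each library in turn. Fos was at 75.8, 114 and 113 CPM against 76.0, 48.7 and 109 CPM (log2 fold change -0.38, SE 0.27), Fosb differed by -0.29 (SE 0.32) and Egr2 by -0.18 (SE 0.41), all with overlap. Npas4 was at 0.254 CPM or less.
Other early response genes went both ways in iBAT, with 4 of 40 called higher and 12 lower. Nr4a3, of the same receptor family as Nr4a1, had the lowest p, with a log2 fold change of -3.01. Of 20 upstream regulators 1 was higher (Rps6ka1, a growth factor regulated kinase, 0.95) and none lower.

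Other transcripts moved with these genes in iBAT. The 6 skeletal muscle genes, 5 of them called lower, summed to 6043 to 8481 CPM at 22 °C and 2330 to 4882 CPM at 10 °C. The 5 hepatocyte genes summed to 46.9 to 83.7 CPM and 0.191 to 0.884 CPM, and the 5 brown adipocyte genes to 7457 to 12177 CPM and 13093 to 17024 CPM. Of 12 clock genes, which follow the time of day, 3 were higher and 6 lower, with Per3 at -1.36. The part of these in the lower levels of the 6 members was not tested.

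In iBAT at 34 °C, 2 of 9 members tested were higher and none lower, where 12.2% of 12331 genes were called higher and 7.19% lower. Jun was at 80.4, 67.7 and 47.3 CPM at 22 °C and at 135, 400 and 120 CPM at 34 °C. The groups did not overlap, with a log2 fold change of 1.75 (SE 0.47, adjusted p 0.0312), and Jun was the 1 member higher at an adjusted p under 0.05, where 9.15% of genes were. Arc was at 2.21, 1.63 and 0.329 CPM at 22 °C and at 6.22, 10.9 and 2.37 CPM at 34 °C (log2 fold change 2.24, SE 0.74, adjusted p 0.0581), also without overlap. Library 2 at 34 °C was the highest of the 6 for all 10 members, for example at 401 CPM of Fos against 39.2 to 141 CPM in the other 5, and at 755 CPM of Egr1 against 62.1 to 264 CPM. Without it Jun was still called, at 0.95, and Arc was not, at 1.62. Without 34 °C library 3, the lowest of the 3 for each member, 6 of 9 were called higher, Jun (2.03), Arc (2.62), Fosb (2.20), Junb (1.56), Egr1 (1.82) and Egr2 (2.14). Leaving out the lowest 34 °C library raises these fold changes by construction. The share of all genes called higher in that fit is not reported here, so its count is no measure of a rise.

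The other 7 members had wide spreads in warm brown fat. Log2 fold changes were 0.95 (SE 0.73) for Fos, 1.71 (SE 0.94) for Fosb, 1.22 (SE 0.57) for Junb, 1.39 (SE 0.72) for Egr1, 1.66 (SE 0.88) for Egr2 and 1.01 (SE 0.64) for Ier2. Nr4a1, at 389, 357 and 57.9 CPM against 209, 431 and 119 CPM, differed by -0.08 (SE 0.70). None was called. Of 39 other early response genes, 12 were higher and 4 lower, and Klf6, a zinc finger factor, had the lowest p (0.98). Among upstream regulators Mef2d was lower (-0.78). The brown adipocyte genes summed to 10042 to 13165 CPM at 22 °C and 5233 to 6629 CPM at 34 °C. The skeletal muscle genes varied between libraries, at 2.87, 4473 and 8.38 CPM at 22 °C and 3540, 953 and 1100 CPM at 34 °C, and their part was not tested.

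**Figure D3:**
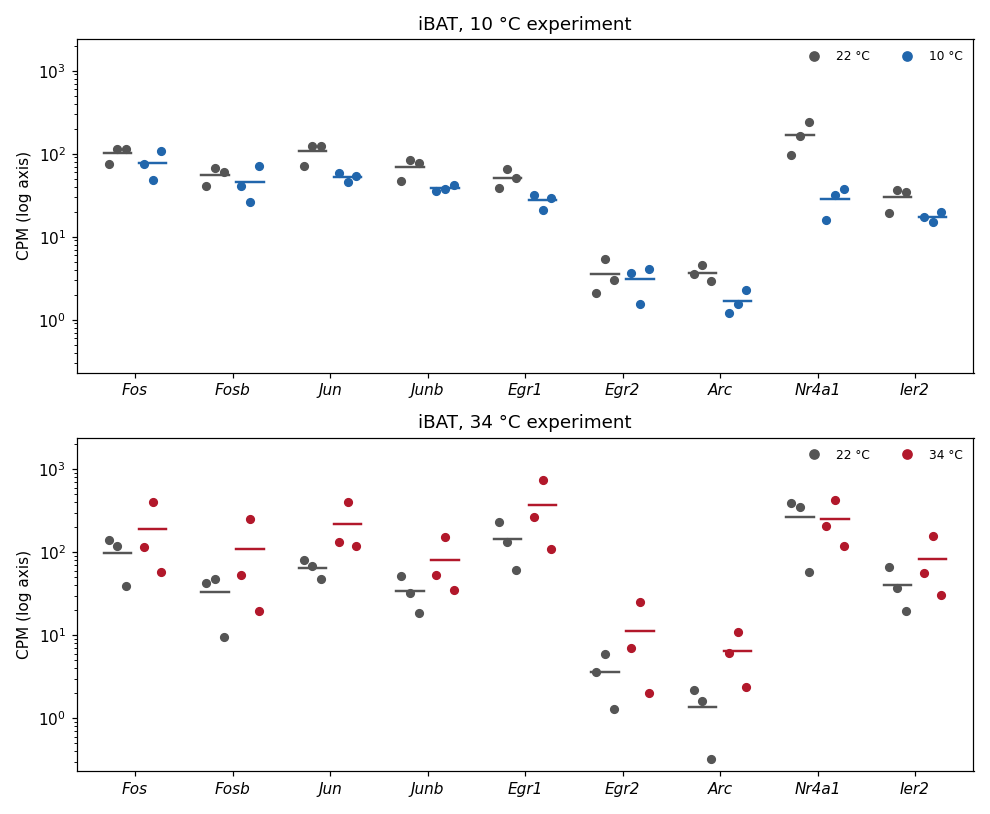
CPM of 9 members in each brown fat library on a log axis, at 22 °C and 10 °C (top) and at 22 °C and 34 °C (bottom), with bars for group means. Nr4a1 falls from 96.0 to 243 CPM at 22 °C to 15.8 to 37.2 CPM at 10 °C, and in the lower panel 34 °C library 2 is the highest point for each gene.

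In ingSAT at 10 °C, 2 of 9 tested members were lower and none higher, where 9.14% of 13982 genes were called lower and 7.2% higher. Junb was at 61.8, 45.4 and 64.2 CPM at 22 °C and at 37.4, 37.1 and 27.8 CPM at 10 °C, a log2 fold change of -0.75 (SE 0.18, adjusted p 0.0565) without overlap. Jun was at 98.4, 64.8 and 67.5 CPM against 66.6, 36.1 and 33.4 CPM (log2 fold change -0.76, SE 0.30, adjusted p 0.157), with overlap. The Jun call was lost when any 1 of 4 libraries (22 °C replicates 1 and 3, 10 °C replicates 2 and 3) was left out.
Their partner subunits were not called. Fos was at 75.5, 63.2 and 79.7 CPM against 97.9, 57.7 and 46.5 CPM (log2 fold change -0.11, SE 0.27), and Fosb differed by 0.66 (SE 0.31), with overlap and no call. Egr1 differed by -0.44 (SE 0.20) and Nr4a1 by -0.22 (SE 0.47), neither called. Of 44 other early response genes 3 were higher and 5 lower, led by Rgs2, a regulator of G protein signalling (1.88). The brown adipocyte genes rose from 87.4 to 147 CPM at 22 °C to 1960 to 2564 CPM at 10 °C, with 5 of 5 called. The macrophage genes were lower, with 4 of 5 called (Csf1r at -1.05), and summed to 463 to 1102 CPM at 22 °C and 319 to 478 CPM at 10 °C. The part of these markers in the Jun and Junb values was not tested.

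In pgVAT at 10 °C, 4 of 9 tested members were lower and 1 higher, where 3.47% of 14856 genes were called lower and 4.46% higher. Fos was at 49.8, 38.0 and 49.5 CPM at 22 °C and at 10.5, 13.4 and 12.2 CPM at 10 °C. The groups were far apart, with a log2 fold change of -1.93 (SE 0.23), the lowest p of all genes tested. Fosb was at 14.5, 10.4 and 21.1 CPM against 1.95, 2.11 and 1.56 CPM (log2 fold change -3.02, SE 0.38). Egr1 was at 32.6, 24.8 and 60.2 CPM against 12.8, 12.5 and 11.0 CPM (log2 fold change -1.69, SE 0.36), and these groups did not overlap either. Depth was uneven, with 23789328, 7607873 and 4262403 counts in the 22 °C libraries and 14428541 to 19137525 at 10 °C. The control with the fewest counts was the highest for Fosb and Egr1. The part of depth in these values was not tested.
For Fos and Fosb the adjusted p was 0.42, and for Egr1 it was 0.593. Fos, Fosb and Egr1 stayed called without each library in turn. Jun was at 70.7, 55.9 and 109 CPM against 43.3, 31.2 and 56.8 CPM (log2 fold change -0.84, SE 0.33), with overlap, and the call was lost when any 1 of 4 libraries (22 °C replicates 1 and 3, 10 °C replicates 1 and 2) was left out. Junb (-0.57, SE 0.52), Ier2 (-0.92, SE 0.56), Nr4a1 (-0.18, SE 0.48) and Arc (0.29, SE 1.14) were not called.

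Egr2 alone was higher in pgVAT, and its libraries disagreed. It was at 8.67, 3.74 and 10.4 CPM at 22 °C and at 118, 2.32 and 208 CPM at 10 °C, a log2 fold change of 3.85 (SE 1.31, adjusted p 0.593). The cold libraries of replicates 1 and 3 held the high values, and the library of replicate 2 was below every control. The 5 epididymis genes summed to 14145, 2.11 and 17100 CPM in the same 3 libraries and to 2584, 876 and 511 CPM at 22 °C. Their part in the Egr2 value was not tested. The Egr2 call was lost without any 1 of the 3 controls or without the cold library of replicate 3, at log2 fold changes of 2.99 to 4.42 over all 6 omissions. For Fos, the cold library with 2.11 CPM of epididymis genes was at 13.4 CPM and the others were at 10.5 and 12.2 CPM. The adipocyte genes summed to 18617 to 31072 CPM at 22 °C and 8726 to 27997 CPM at 10 °C. Of 43 other early response genes 2 were higher and 9 lower, led by Zfp36, which encodes a protein that destabilises mRNA (-1.60), and of the regulators Rps6ka2 was higher (1.10).

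**Figure D4:**
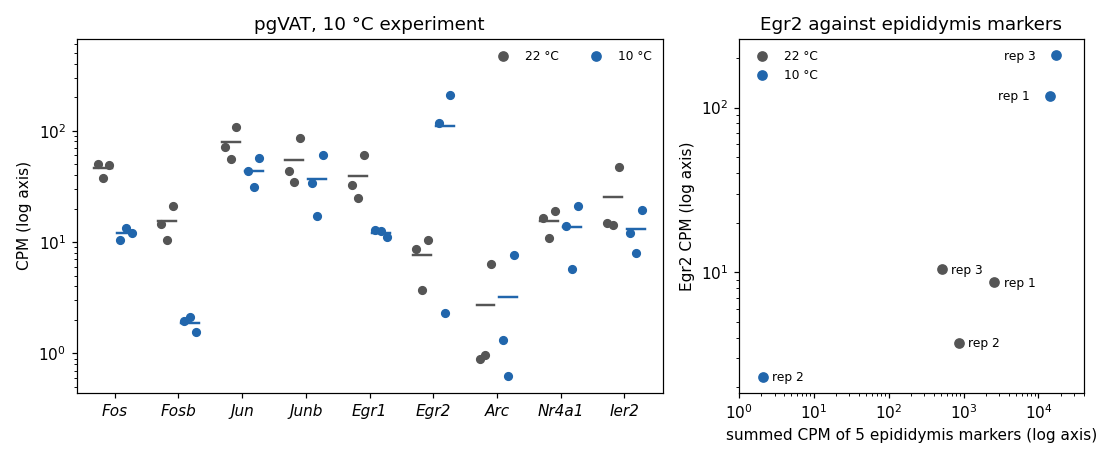
Left, CPM of 9 members in each pgVAT library on a log axis, with bars for group means. Right, Egr2 CPM against the summed CPM of 5 epididymis markers in each library, both on log axes. The 2 cold libraries at 118 and 208 CPM of Egr2 are those at 14145 and 17100 CPM of epididymis markers, while Fos, Fosb and Egr1 are low in all 3 cold libraries.

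In quadriceps at 10 °C, 2 of 9 tested members were lower and none higher, where 0.642% of 11836 genes were called lower and 2.7% higher. Nr4a1 ranged from 167 to 350 CPM (median 176) over the 6 controls and was at 145, 154 and 105 CPM at 10 °C. The groups did not overlap, with a log2 fold change of -0.66 (SE 0.24, adjusted p 0.326). Arc ranged from 1.65 to 3.23 CPM (median 2.47) and was at 1.97, 1.32 and 1.04 CPM at 10 °C (log2 fold change -0.76, SE 0.27, adjusted p 0.301), with overlap. Nr4a1 was not called without the control at 350 CPM, Arc was not called without the cold library at 1.32 CPM, and neither was called without the third cold library. Against the 3 controls whose column names resemble those of the cold libraries, Arc was called and Nr4a1, at -0.35, was not. Fos ranged from 12.0 to 40.8 CPM at 22 °C and was at 38.9, 34.9 and 14.6 CPM at 10 °C (log2 fold change 0.35, SE 0.42).
Rgs2 (1.22) had the lowest p among 37 other early response genes, of which 2 were higher and 2 lower. One cold library of quadriceps held 161 CPM of epididymis genes, against at most 0.0971 CPM elsewhere in that comparison, and its Nr4a1 level was 145 CPM. The neutrophil genes were higher in 3 of 3 tested, and summed to 0.0254 to 1.64 CPM at 22 °C and to 7.71, 38.5 and 0.143 CPM in the 3 cold libraries. Adipocyte genes (3 of 5 higher) summed to 193 to 552 CPM and 275 to 790 CPM, and brown adipocyte genes (3 of 5 higher, Elovl3 at 6.90) to 261 to 373 CPM and 278 to 473 CPM. Their part in the Nr4a1 and Arc values was not tested. In quadriceps at 34 °C none of 9 members was called, where 0.409% of 11725 genes were called higher and 0.836% lower. Fos was at 23.9, 17.8 and 14.7 CPM, within the range of the 6 shared controls, and Nr4a1 at 172, 152 and 199 CPM, of which only 152 CPM lay below all 6. Of 35 other early response genes Gadd45b, a growth arrest gene, was the 1 called, higher (0.81).

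In liver at 10 °C, Junb was the 1 member called of 6 tested, higher, where 0.74% of 12026 genes were called higher and 2.54% lower. It was at 17.7, 38.1 and 24.3 CPM at 22 °C and at 50.8, 32.8 and 48.3 CPM at 10 °C (log2 fold change 0.72, SE 0.26, adjusted p 0.19). The groups overlapped, and the call was lost when any 1 of 4 libraries (replicates 1 and 3 of either group) was left out. Jun, at 24.9 to 47.1 CPM against 45.5 to 62.7 CPM, differed by 0.51 (SE 0.21) and Egr1, at 9.26 to 28.3 CPM against 9.09 to 14.3 CPM, by -0.75 (SE 0.34), neither called. Fosb, Egr2, Arc and Npas4 were too low to test. Of 35 other early response genes none was higher and 2 lower, led by Myc (-1.29), and 3 of 20 regulators were lower, led by Mrtfb, a cofactor of serum response factor (-0.70).

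In liver at 34 °C, 2 of 6 tested members were higher and 1 lower, where 1.77% of 11179 genes were called higher and 1.61% lower. Fos was at 1.86, 4.11 and 3.14 CPM at 22 °C and at 4.19, 6.93 and 5.32 CPM at 34 °C (log2 fold change 0.86, SE 0.30, adjusted p 0.331). Egr1 went the other way, at 35.4, 91.0 and 54.1 CPM against 15.1, 24.6 and 30.4 CPM (log2 fold change -1.36, SE 0.35, adjusted p 0.196). Neither overlapped, and Egr1 stayed called without each library in turn. Nr4a1 was at 1.72, 7.003 and 4.08 CPM against 10.1, 63.3 and 6.79 CPM (log2 fold change 2.66, SE 0.84, adjusted p 0.277), with overlap. Without 34 °C library 2 Nr4a1 had a log2 fold change of 0.99 and Fos of 0.65, and neither was called. Fos was also not called without 22 °C library 1, at 0.60. Junb (0.57, SE 0.19) was under the fold limit. Of 32 other early response genes 11 were called higher and 0 lower, with a median log2 fold change of 0.53 against 0.01 over all genes, led by Socs3, an inhibitor of cytokine signalling (1.42).

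No member was called in ileum or spleen. In ileum at 10 °C, 1.44% of 14081 genes were called higher and 1.26% lower. Jun was at 97.3, 86.3 and 98.3 CPM at 22 °C and at 144, 123 and 118 CPM at 10 °C, without overlap, but its log2 fold change of 0.45 (SE 0.09, adjusted p 0.107) was under the fold limit. Fos, at 144, 93.7 and 93.3 CPM against 80.4, 201 and 137 CPM, differed by 0.34 (SE 0.32). Atf3 (0.66) had the lowest p of 2 of 42 other early response genes called, both higher. In ileum at 34 °C, where 1.57% of 13023 genes were called higher and 1.26% lower, the 9 tested members had log2 fold changes of -0.84 to 0.56. Of 40 other early response genes, 7 were lower and 0 higher, led by Plk3, a polo-like kinase (-1.14). In spleen, where 0.638% of 14117 genes were called higher and 2.04% lower, Junb was at 151, 102 and 129 CPM at 22 °C and at 106, 105 and 107 CPM at 10 °C (log2 fold change -0.26, SE 0.13). Apold1 (-0.79) led 3 of 42 other early response genes called lower, with none higher. The neutrophil genes of spleen, 5 of 5 called lower, summed to 339 to 693 CPM at 22 °C and 103 to 123 CPM at 10 °C.

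In bone marrow none of 9 tested members was called at 10 °C, where 0.647% of 12525 genes were called higher and 0.647% lower. The cold mice did not form 1 cluster. Fos was at 58.8 and 51.5 CPM in the mice of replicates 3 and 4 and at 9.10 to 12.1 CPM in the other 4, while the 22 °C mice were at 7.97 to 32.7 CPM (median 15.8). Egr1 was at 54.4 and 41.4 CPM in the same mice, at 9.06 to 12.1 CPM in the other cold mice and at 6.30 to 30.7 CPM at 22 °C. Junb was at 69.8 and 64.3 CPM against 33.5 to 36.9 CPM in the other cold mice, and at 35.4 to 66.9 CPM at 22 °C. The log2 fold changes were 0.63 (SE 0.50) for Fos, 0.73 (SE 0.49) for Egr1 and -0.06 (SE 0.20) for Junb.
At 22 °C the mouse of replicate 1 was highest for Fos, Junb, Egr1, Egr2, Npas4, Nr4a1 and Ier2. The neutrophil genes, which make up much of marrow RNA, summed to 36650 and 34772 CPM in the cold mice of replicates 3 and 4 and to 34758 to 36857 CPM over all 6. Jun (-0.14, SE 0.09), Arc (0.16, SE 0.17) and Npas4 (-0.02, SE 0.17) were within overlapping ranges. Of 40 other early response genes only Cyr61, which encodes a matrix protein, was called, higher (1.80).

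**Figure D5:**
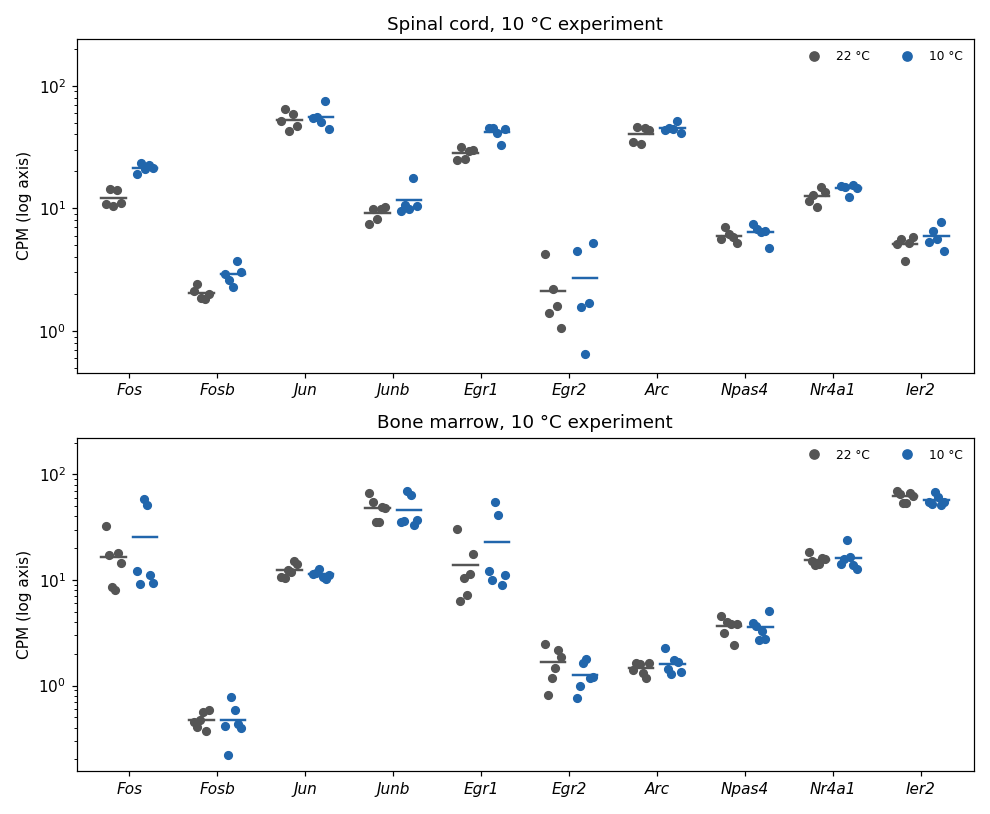
CPM of each member in each mouse on a log axis, in spinal cord (top, 5 mice a group) and bone marrow (bottom, 6 mice a group) at 22 °C and 10 °C, with bars for group means. In spinal cord the Fos points at 18.9 to 23.3 CPM lie above all points at 22 °C, and in marrow 2 cold mice stand at 58.8 and 51.5 CPM of Fos.

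Whether the change differed between tissues was tested with interaction terms within each table. In the 8 tissue table at 10 °C the difference passed at an adjusted p under 0.05 for 7 of 10 members, where it passed for 16.1% of 15935 genes. The adjusted p was 0.000412 for Fosb, 0.00678 for Fos and for Jun, 0.00854 for Nr4a1, 0.00946 for Junb, 0.0127 for Egr1 and 0.0324 for Egr2. It was 0.0889 for Npas4, 0.21 for Arc and 0.222 for Ier2. Of these 8 tissues, Npas4 passed the filter on low counts in its own comparison only in brain and hypothalamus. Npas4 had 0 counts in all liver libraries, and its average change over the tissues could not be estimated (SE 428). Without the 22 °C brain library of replicate 2 the count was 7 again, without brain or without iBAT it was 5, and without pgVAT it was 4. Those 4 were Jun, Junb, Nr4a1 and Arc, of which Arc was not among the 7. Fosb (adjusted p 0.474), Fos (0.171), Egr2 (0.184) and Egr1 (0.0539) did not pass without pgVAT. No member had an average change over the 8 tissues at that limit, where 3.13% of genes were higher and 2.71% lower. The lowest adjusted p was 0.0665, for Egr1, whose average log2 fold change was -0.38 (SE 0.13).
Without the 22 °C brain library of replicate 2 the average change of Egr1 passed that limit.
In 5 tissues at 34 °C the difference passed for Arc (adjusted p 0.00972) and Jun (0.0249), where it passed for 11.7% of 14999 genes, and without iBAT for none. No member had an average change there, where 2.73% of genes were higher and 3.51% lower. For Npas4 that average could not be estimated either (SE 1578). Tissues may come from the same mice, which these fits do not model.

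The members varied more between libraries of a group than most genes did. Over the 141 tested pairs of member and comparison, the SD of log2 CPM within groups was above the median gene in 129 and above the 90th percentile in 63, with a median percentile of 86.7. In iBAT at 34 °C all 9 were above the 90th percentile.
Likeness to Fos was described over the 48 libraries of the 8 tissue table, as Pearson's r of deviations from group means of log2 CPM over 15935 genes. Among the 10 closest were Fosb (0.67), Pcdhb21 (0.54), Bicc1 (0.52), Gli2 (0.52), Rgs16 (0.51), Edn1 (0.51), Pcdhb11 (0.50), Egr1 (0.49) and Tmem88b (0.48). Over the 36 libraries of the 7 tissue table, the 10 closest were Egr1 (0.87), Fosb (0.87), Dusp1 (0.82), Junb (0.79), Zfp36 (0.77), Ier2 (0.77), Btg2 (0.71), Dio2 (0.69), Bub1b (0.65) and F7 (0.65), and 2 genes were shared between both sets of 10. Among the 45 pairs of members the median r was 0.38 in the first table and 0.54 in the second. Libraries of a group share tissue and dissection, and no test was made of these correlations.

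Upstream regulators and 2 further lists complete the comparisons. In ingSAT, quadriceps, ileum, spleen, bone marrow, hypothalamus and spinal cord at 10 °C, and in quadriceps, ileum, liver and brain at 34 °C, none of the regulators tested was called. Of 10 heat shock genes, at 10 °C 7 were higher in ileum, 6 in ingSAT, 5 in quadriceps, 4 in iBAT, 2 each in bone marrow and spinal cord and 1 in hypothalamus, and none in pgVAT, liver, spleen or brain. At 34 °C 2 were lower in iBAT, ileum and liver, 1 in quadriceps and none in brain, and no heat shock gene went against these directions.
Of the clock genes tested, 6 were lower and 2 higher in each of ingSAT, pgVAT and quadriceps at 10 °C, 3 lower and 2 higher in ileum, and 1 lower and 2 higher in liver. Outside iBAT, single clock genes were called in spleen (higher), spinal cord (lower) and brain at 10 °C, where it was Per1, which is also among the early response genes. Bone marrow and hypothalamus had none, nor did quadriceps, ileum, liver and brain at 34 °C, and in iBAT at 34 °C 1 was higher and 1 lower. The part of the time of sampling in the members' changes was not tested.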

How the data were processed

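RNA was sequenced from bulk tissue, as 48 libraries of 8 tissues in one table, 36 in a table named for 7 tissues (quadriceps and the warm experiment), and separate bone marrow and spinal cord tables, 106 libraries in all. The deposited values are raw counts of reads per gene, made by the authors on mm10 and not normalized. Per the labels the tools were STAR 2.5.3a, Picard 1.141 and HTSeq 0.6p1. Sequencing sites differed between the 8 tissue table and the others, and kits did for bone marrow, spinal cord and the warm experiment, so levels were not compared across tables. The strand setting of the counting is not given in the sources used here.

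Of 21647 Ensembl identifiers of the 8 tissue table, 21583 matched a symbol in GENCODE M21. CPM was scaled with TMM factors within each comparison. Tests used edgeR 4.0.16 in R 4.3.3 (quasi-likelihood, two-sided) on genes whose mean log2 CPM exceeded 0. As in the study's methods, calls needed p no higher than 0.05 before adjustment and more than a 1.5-fold change, and Benjamini-Hochberg values stand beside them. SE is the size of the log2 fold change divided by the square root of F. One fit per table gave the average change and the difference between tissues, called at an adjusted p under 0.05. Likeness used log2 CPM with a prior count of 2 and took the 10 closest genes, of which 1 is not reported here. Promoters came from RefSeq (GRCm38.p6), where 7 members matched.

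All 10 members were named in each comparison. From the lists of other early response genes, upstream regulators, heat shock and clock genes, counts and the called gene with the lowest p were given, and genes named beyond that were chosen after their values were seen. Members and lists were chosen with earlier results of these data known. Library totals were 4262403 to 62880248 counts (median 21585677), and reads carried no molecular identifiers, so depth bounds counting error only. p-values measure the spread between libraries. The test was checked on simulated data with 200 genes changed. Alternatives were edgeR's exact test, DESeq2 1.42.0, no TMM factors, filterByExpr, a filter of more than 1 count, adjusted p-values, a replicate block and each library or tissue left out.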

Additional observations from a re-analysis of the deposited data

Results flagged for a closer look

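Dixon's criterion was applied to 47 sets of CPM values without logs. Each set held 1 member in 1 of the 5 groups with 4 to 10 libraries. In 4 sets a value stood apart from the rest, each time the highest. For normally distributed values chance alone gives this in about 1 set in 20. That rate may not hold for CPM without logs, and sets of a group share libraries. In quadriceps at 22 °C, 1 library (the second of those with column names starting QC) held both Egr2, at 5.30 CPM against 0.253 to 0.781 CPM in the other 5, and Nr4a1, at 350 CPM against 167 to 234 CPM. Nr4a1 in the bone marrow library of 10 °C replicate 3 was at 23.7 CPM, where the other 5 were at 12.7 to 16.5 CPM. Junb in the spinal cord library of 10 °C replicate 4 was at 17.7 CPM, where the other 4 were at 9.46 to 10.7 CPM. The neuron genes of that spinal cord library summed to 2685 CPM, the lowest of the 10.

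The change at 10 °C differed between the 8 tissues for 7 members by edgeR's joint test of the interaction terms, with adjusted p-values of 0.000412 for Fosb, 0.00678 for Fos, 0.00678 for Jun, 0.00854 for Nr4a1, 0.00946 for Junb, 0.0127 for Egr1 and 0.0324 for Egr2. Over all genes that difference passed for 16.1% of 15935. Without pgVAT, Fosb, Fos, Egr1 and Egr2 did not pass. Fos had a log2 fold change of -1.93 in pgVAT and 1.23 in brain, Nr4a1 of -2.57 in iBAT and 1.44 in brain, and Junb of -0.88 in iBAT and 0.94 in brain. The change at 34 °C differed between 5 tissues for Arc (adjusted p 0.00972) and Jun (adjusted p 0.0249), with Arc at 2.24 in iBAT and -0.77 in brain. Over all genes it passed for 11.7% of 14999, and without iBAT no member passed.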

How the results depend on the processing

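All 34 calls kept their direction under every alternative run. Over edgeR's exact test, DESeq2, library size scaling and 2 other filters, 164 of 170 values stayed called. The exceptions were Arc (-0.58) and Nr4a1 (-0.50) in quadriceps with library size only, Junb in liver with DESeq2 (0.71), Fosb in brain at 10 °C with the exact test (0.62) and library size only (0.73), and Fos in brain at 34 °C with DESeq2 (-0.83). Library size alone moved the median of all genes by -0.156 in iBAT, 0.151 in quadriceps and 0.122 in brain at 10 °C and by 0.273 in iBAT at 34 °C (log2). With adjusted p-values, calls fell from 11 to 1 higher and 14 to 5 lower at 10 °C, and from 4 to 1 higher and 5 to 0 lower at 34 °C.

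Leaving out each library in turn, 22 of 34 calls held throughout, and the counts ran from 10 to 12 higher and 12 to 16 lower at 10 °C and from 2 to 8 higher and 3 to 7 lower at 34 °C. The counts of 8 and 2 came without iBAT 34 °C library 3 and liver 34 °C library 2, and that of 3 without brain 22 °C library 2. With only the quadriceps controls of column names QM, Nr4a1 was not called (-0.35), and with only QC, Arc was not (-0.68), alternatives added after seeing the data. Controls by sample title could not be tied to columns, so those alternatives were not run.

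Replicate numbers did not pair the libraries: over 34 pairs the correlation of deviations ran from -0.69 to 0.43, 12 were above 0.1 and 10 libraries correlated best with their own number. With the replicate block, 10 members were called higher and 16 lower at 10 °C, with Egr2 in pgVAT (2.82) and Fosb in brain (0.65) lost, 0 had an average change and 5 differed between tissues.

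No member had an average change over 8 tissues, but 3 did at an unadjusted p, and 1 with library size only, without brain, hypothalamus, liver or spleen in turn, or without the brain 22 °C library of replicate 2. The count that differed between 8 tissues was 7, fell to 5 without brain and without iBAT, and to 4 without pgVAT. Those 4 included Arc, which was not among the 7, and lacked Fos, Fosb, Egr1 and Egr2. Over 5 tissues the average went from 0 to 1 at an unadjusted p, without brain or without ileum, and the difference from 2 to 4 at an unadjusted p, 1 without brain and 0 without iBAT. Of the genes most like Fos, Bicc1 had r = -0.0876 in the 7 tissue table, and 4 of 10 were shared with Spearman's rho. The cause of these shifts was not tested. With 3 libraries a group, changes under the fold limit and those of wide spread were not resolved, and Npas4, Arc, Egr2 and Fosb were limited by depth where they had few counts.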
